A study of Mus musculus with 2 samples.

Results

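Mast cell genes were followed in the skin of Pla2g2f-transgenic mice and their controls. The set held 10 genes, chosen as markers of mast cells: the chymases Cma1 and Mcpt4, the carboxypeptidase Cpa3, the tryptases Tpsb2 and Tpsab1, the histamine-forming enzyme Hdc, the proteoglycan Srgn, and the 3 chains of the high-affinity IgE receptor, Fcer1a, Ms4a2 and Fcer1g. Members were found by symbol, accession or alias among the 41167 probes of the array, and the 10 genes had 13 probes. RNA came from the skin of 25-day-old heterozygous Pla2g2f-Tg/+ mice and of littermate controls, on a C57BL/6 background, and 4 mice were pooled for each genotype. Pla2g2f encodes a secreted phospholipase A2. The sources used here do not name the promoter that drives the transgene. Each of 2 Agilent 2-colour arrays carried both pools, the transgenic RNA in Cy5 on array 1 and in Cy3 on array 2. Whether the second array was made from fresh pools is not stated in the labels. The 2 arrays are therefore treated as 1 replicate, their difference is not read as a spread across mice, and there is no p-value across mice.

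Mast cells live in the dermis as long-lived tissue cells and store proteases, histamine and heparin in granules. Serglycin carries the sulphated sugar chains that hold proteases and histamine in the granule. Crosslinking of IgE on its receptor, made of an alpha chain that binds IgE, a beta chain that amplifies the signal and a gamma chain that passes it on, empties the granules. Mast cells of the connective tissue type, which mouse skin holds, make both chymases and tryptases together with Cpa3.

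Of the 10 genes, 6 were measured: a probe was well above background, by the scanner program's own flag, in at least 1 channel of array 1. These were Cma1, Mcpt4, Cpa3, Hdc, Srgn and Fcer1g. The transgenic pool was higher for each of the 6 on both arrays, with mean ratios from 1.53-fold for Mcpt4 to 1.98-fold for Cpa3 among the 5 that were well above background in both channels. Hdc, dim in control RNA, had a measured mean of 3.19-fold and alone passed the size rule, at least 2-fold on each array. It no longer passed with array 1 corrected by normexp and loess, a different background and dye correction, and was left out when both channels had to be well above background. The remaining 4 members, Tpsb2, Tpsab1, Fcer1a and Ms4a2, were not well above background in either channel. Of the genes that mark mast cells most closely, chymases and carboxypeptidase were thus detected in both pools, while tryptases and the 2 receptor chains that mark mast cells and basophils were below the range of the array. Skin markers were present, with all 10 listed keratinocyte and fibroblast genes, from Krt5 to Dcn, well above background in both channels. Krt1, with a mean log2 ratio of 2.26, and Krt14, with 1.12, passed the size rule as higher, and the other 8 did not pass. Krt10 lay at 0.99, and the median of the 10 was 0.43.

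Among 10456 genes measured, 390 were at least 2-fold higher in the transgenic pool on each array (3.73%) and 176 at least 2-fold lower (1.68%). The corresponding count for the mast cell genes was 1 of 6 higher and 0 lower. At least 1.5-fold higher on each array were 5 of the 6, against 8.26% of all genes measured, and above 0 on both arrays were 6 of 6, against 35.3%. The median of the 6 means was 0.90 on the log2 scale, beside -0.0079 over all genes measured. Hdc entered only through the transgenic channel, the one where it is bright, and the others entered through both. The scale matters here. The spike-in control RNAs had a median ratio of 0.46 (log2, transgenic channel over control channel), and with the arrays centred on them the median of the 6 was 0.44 and each of the 6 stayed above 0. Centred likewise, the 10 skin markers had a median of -0.03, and 1 passed the size rule. In RNA of whole skin, a change in the number of cells of a type and a change in RNA per cell cannot be told apart.

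The array reads each gene through a 60-base probe, and the sequences show what each value stands for. The probes of the granule proteases and of Hdc are given as designed, 5′ to 3′, in lower case. In the tryptase pair, capitals mark the bases that differ when both are laid side by side without gaps at their best offset.
Cma1, first probe: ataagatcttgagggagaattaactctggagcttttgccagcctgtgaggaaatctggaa
Cma1, second probe: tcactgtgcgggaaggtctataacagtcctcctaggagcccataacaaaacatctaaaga
Mcpt4, first probe: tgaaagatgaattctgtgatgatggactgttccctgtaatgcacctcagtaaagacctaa
Mcpt4, second probe: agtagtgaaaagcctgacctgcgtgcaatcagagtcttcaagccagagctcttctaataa
Cpa3: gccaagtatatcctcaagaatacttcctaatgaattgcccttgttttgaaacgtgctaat
Hdc: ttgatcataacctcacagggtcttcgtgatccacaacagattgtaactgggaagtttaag
Tpsab1: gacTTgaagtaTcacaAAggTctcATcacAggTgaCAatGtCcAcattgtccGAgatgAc
Tpsb2: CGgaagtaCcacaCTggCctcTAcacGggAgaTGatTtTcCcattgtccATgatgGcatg
The tryptase probes matched at 39 of 57 aligned bases, with no shared run longer than 8 bases. No run longer than 8 bases was shared by probes of any pair of members, so no member's probe here holds a long stretch of another's. The 2 Cma1 probes shared at most 5 bases in a row, as did the 2 Mcpt4 probes. The Cma1 probes are listed at separate places. The places listed for the Mcpt4 probes overlap although their letters do not, and that of the second spans 32 bases, fewer than its own 60, so where it reads the transcript is not settled here. Relatives outside the set, such as other chymase genes of the same cluster, were not compared by sequence.

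**Figure D1:**
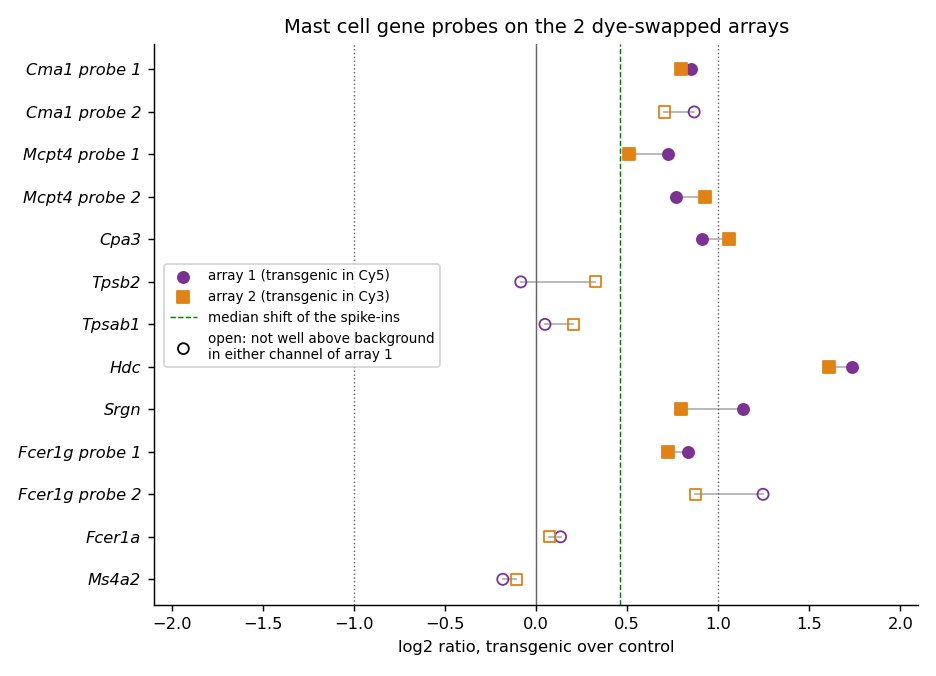
Log2 ratio of transgenic over control for each of the 13 probes of the 10 mast cell genes, on array 1 (circles) and array 2 (squares), with open symbols for probes that were dim in both channels of array 1. Dotted lines mark 2-fold. Both arrays place Cma1, Mcpt4, Cpa3, Hdc, Srgn and Fcer1g to the right of 0, with Hdc at 1.74 and 1.61, while Tpsb2, Tpsab1, Fcer1a and Ms4a2 lie near 0.

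The chymases are serine proteases. Cma1 encodes mouse mast cell protease 5, and Mcpt4 encodes protease 4, held to be the mouse counterpart of human chymase in function. The first probe of Cma1 (NM_010780; mm8, chromosome 14, 54895688 to 54895747, minus strand) had a processed signal of 788 in transgenic and 437 in control RNA on array 1, in arbitrary units after dye normalisation. Both channels were well above background. Log2 ratios of transgenic over control were 0.85 (array 1) and 0.80 (array 2), which average to 1.77-fold. The arrays differed by 0.06, less than the median difference of 0.23 over all genes measured. The second Cma1 probe spans 1060 bases of the genome (mm8, chromosome 14, 54896725 to 54897784), more than its own 60, and so lies across an intron. It was dim in both channels, with signals of 154 in transgenic and 84.1 in control RNA, and its log2 ratios were 0.87 and 0.70. Both probes thus lay between 0.70 and 0.87, although the second was below the level that counts as measured. The control signal of the second probe on array 1 was a substitute value, which the scanner program puts on dim spots. Its 0.87 is therefore a ratio over a substitute.

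Mcpt4 showed the lowest ratio of the measured members. Its first probe (NM_010779; mm8, chromosome 14, 55013823 to 55013882, minus strand) had signals of 759 in transgenic and 460.2 in control RNA. The log2 ratios were 0.72 and 0.51, a mean of 1.53-fold. The second Mcpt4 probe (listed at 55013815 to 55013846) had 320.3 in transgenic RNA and 188 in control RNA, where it was not well above background, with log2 ratios of 0.77 and 0.93 and a mean of 1.8-fold. The 2 probes were close on array 1, at 0.72 and 0.77, and further apart on array 2, at 0.51 and 0.93. With the mean of its probes in place of the brightest, Mcpt4 lay at 0.73.

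Cpa3 encodes carboxypeptidase A3, a granule enzyme that trims residues from the carboxy end of peptides and is stored with Cma1. Its probe (NM_007753; mm8, chromosome 3, 20407825 to 20407884, minus strand) gave 457 in transgenic and 243 in control RNA, both well above background. The log2 ratios were 0.91 and 1.06, a mean of 1.98-fold. Cpa3 therefore passed 2-fold on array 2 and fell short of it on array 1. The 3 measured proteases spanned 0.37 on the log2 scale, with a median of 0.82.

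The tryptases are trypsin-like proteases that work as tetramers held by heparin. Tpsb2 (listed under its older name Mcpt6; NM_010781; mm8, chromosome 17, 25095113 to 25095172, plus strand) gave 92.7 in transgenic and 98.3 in control RNA, and log2 ratios of -0.08 and 0.32. The arrays disagreed on its sign. Tpsab1 (NM_031187; mm8, chromosome 17, 25071295 to 25071354, minus strand) gave 107 in transgenic and 104 in control RNA, and log2 ratios of 0.05 and 0.20. Mice of the C57BL/6 strain carry a splice-site mutation in Tpsab1 and lack its protein, as background. The lowest signals well above background on array 1 were 190.0 in the transgenic and 199 in the control channel, so both tryptases lay below that range and neither a difference nor its absence can be read from them.

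**Figure D2:**
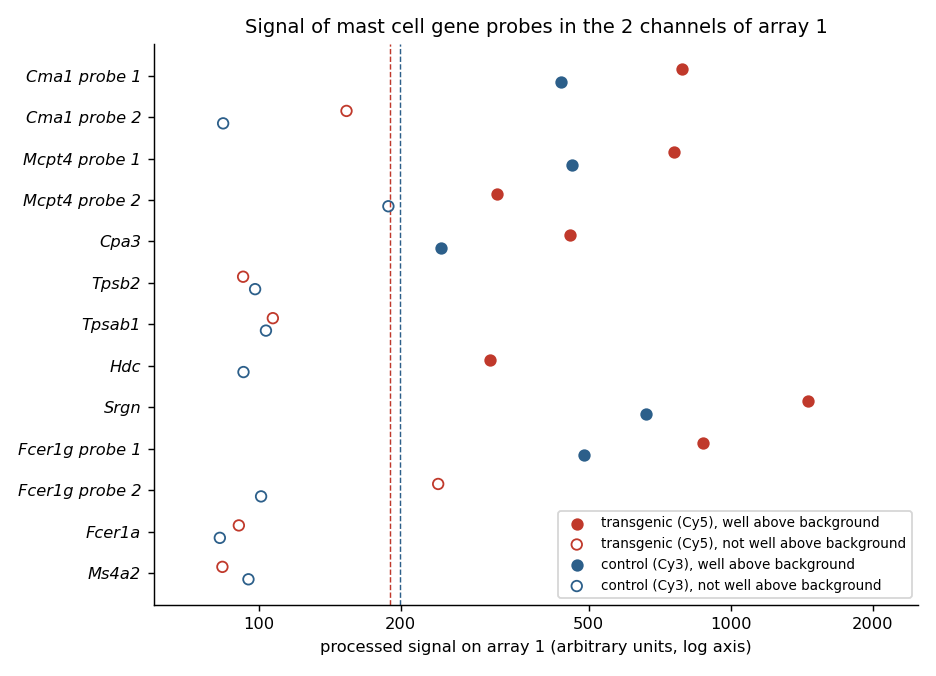
Processed signal of each mast cell gene probe on array 1, on a log axis, in the transgenic channel (red, Cy5) and the control channel (blue, Cy3); open symbols are not well above background, and dashed lines mark the lowest signals that are. The first probes of Cma1 and Mcpt4, and those of Cpa3 and Srgn, are to the right of both lines in both channels, Hdc is to the right in the transgenic channel alone, and the tryptases, Fcer1a and Ms4a2 stay left of the lines. Signals of different probes are not to be compared with each other.

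Histamine is made from histidine in 1 step by histidine decarboxylase, the product of Hdc. Basophils and neutrophils can make it too. The Hdc probe (NM_008230; mm8, chromosome 2, 126285221 to 126285280, minus strand) gave 309 in transgenic and 92.9 in control RNA on array 1, where the control was not well above background. The log2 ratios were 1.74 and 1.61, a measured mean of 3.19-fold over a dim control. Set against the lowest signal well above background, the transgenic signal was at least 1.55-fold higher on array 1, a bound from a single array, which dye bias can shift. This bound rests on the scanner program's signals, as do those given below for other genes. By normexp and loess the array 1 value of Hdc fell below this bound, so Hdc is not ranked against the other members. The bounds given below for Fcgr2b, Ltc4s, Ccl2 and C1qa likewise did not hold by normexp and loess. Centred on the spike-ins, Hdc lay at 1.22 and still passed the size rule. By normexp and loess its array 1 value was 0.25 and its mean 0.93, so it no longer passed. On array 1 Srgn, at 0.56, Cma1, at 0.34, Fcer1g, at 0.33, and Mcpt4, at 0.29, were then above Hdc. Cpa3, at 0.22, was below it.

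Histamine is packed by a vesicular transporter, cleared by oxidases and a methyltransferase, and sensed by a family of receptors. Of 10 genes that load, break down or sense histamine, 1 was measured, Maob, an amine oxidase, with log2 ratios of 0.80 and 0.40, and it did not pass the size rule. The remaining 9 were dim in both channels, with a median of 0.09. Among them were Slc18a2, the transporter that fills granules, and the receptors Hrh1 to Hrh4.

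Srgn encodes serglycin, which white blood cells of many kinds also make. Its probe (NM_011157; mm8, chromosome 10, 61889828 to 61889887, minus strand) gave 1456 in transgenic and 662 in control RNA, both well above background. The log2 ratios were 1.14 and 0.80, a mean of 1.96-fold, and the difference of 0.34 between the arrays was the widest among the measured members. Srgn passed 2-fold on array 1 and not on array 2. Of 13 enzymes that build and sulphate the sugar chains of such proteoglycans, 11 were measured, none (0) passed the size rule, and their median was 0.12, which became -0.34 when centred on the spike-ins. Xylt2, which starts the chains, had the highest mean, 0.84. Ndst2, the sulphotransferase that mast cells need for heparin, lay at 0.26.

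The IgE receptor chains went unmeasured except for the gamma chain. Fcer1a, the alpha chain that binds IgE (NM_010184; mm8, chromosome 1, 175059409 to 175059468), had 90.8 in transgenic and 82.8 in control RNA, and log2 ratios of 0.13 and 0.07. Ms4a2, the beta chain (NM_013516; mm8, chromosome 19, 11684333 to 11684392), had 83.8 in transgenic and 95.2 in control RNA, and log2 ratios of -0.18 and -0.11. Neither reached the measured range in either pool. For these and the tryptases, 4 probes in all, the scanner program's own log ratio on array 1 was set to 0, since substitute values replaced both signals.

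Fcer1g encodes the gamma chain, which many leukocytes use with other Fc receptors. Its first probe (NM_010185; mm8, chromosome 1, 173066338 to 173066397, minus strand) had 873 in transgenic and 489 in control RNA, both well above background. The log2 ratios were 0.84 and 0.72, a mean of 1.72-fold. The second probe (J05020; 173066390 to 173066462) was dim in both channels, with 240.2 in transgenic and 101 in control RNA, and log2 ratios of 1.25 and 0.87. The 2 probes of Fcer1g overlap by the 8 bases in capitals.
Fcer1g, first probe: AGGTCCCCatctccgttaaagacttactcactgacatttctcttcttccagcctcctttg
Fcer1g, second probe: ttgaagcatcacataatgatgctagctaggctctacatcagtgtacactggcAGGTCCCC
Of the 6 member probes dim in both channels, 2 were at least 1.5-fold higher on each array, the second probes of Cma1 and Fcer1g. The control signals of these 2 on array 1 were substitute values, so their ratios there divide by a substitute. Both genes were already measured by their first probes, so these 2 probes add no gene. Among all 27826 dim probes the share was 0.863%.

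By mean log2 ratio the 5 members well above background in both channels ran Cpa3 at 0.98, Srgn at 0.97, Cma1 at 0.82, Fcer1g at 0.78 and Mcpt4 at 0.62. The array values of Srgn overlapped those of Cpa3, Cma1 and Fcer1g, and those of Cma1 and Fcer1g overlapped each other. Both values of Cpa3 were above both of Cma1, Fcer1g and Mcpt4, and both values of Mcpt4 were below those of the other 4, by a narrow margin for Fcer1g. For Mcpt4 this holds for its brighter probe alone. The second Mcpt4 probe, dim in control RNA, read 0.77 and 0.93, which overlapped the values of the other 4. By normexp and loess Cpa3 had the lowest array 1 value of these genes, 0.22, so this order depends on the processing.

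**Figure D3:**
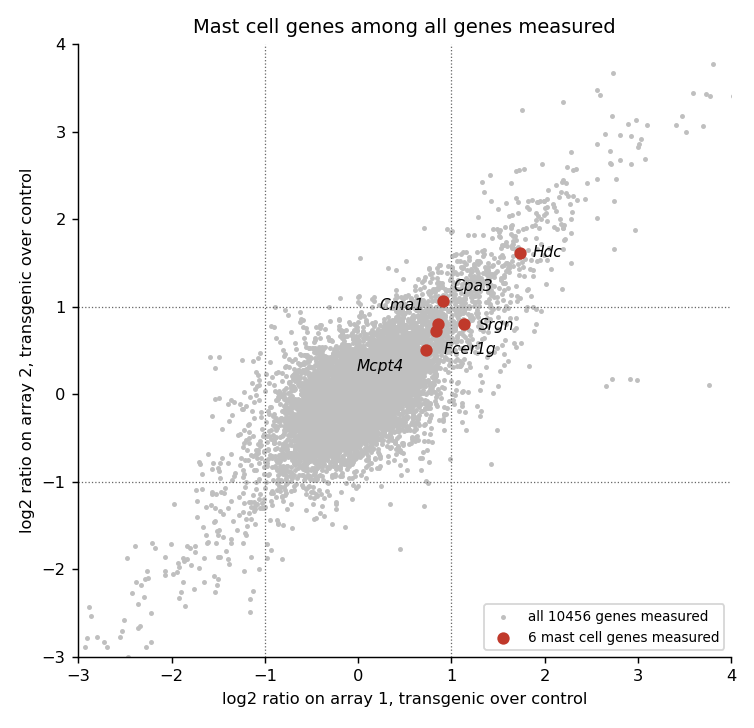
Log2 ratios of transgenic over control on array 1 and array 2 for the 10456 genes measured (grey) and the 6 measured mast cell genes (red), with dotted lines at 2-fold; 49 genes lie outside the axes. Hdc is in the upper right field, past 2-fold on each array, and the other mast cell genes lie at or below its corner, along the diagonal.

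Signalling genes downstream of the IgE receptor had 9 of 20 members measured, with a median of 0.74. By the size rule 2 rose, 0 fell and 7 did not pass. With both channels required to be well above background, 5 were left, with a median of 0.13, and none (0) passed. Inpp5d, the lipid phosphatase SHIP that restrains the receptor, had log2 ratios of 1.40 and 1.33, a mean of 2.57-fold. Fcgr2b, the inhibitory IgG receptor that can silence it, had 1.49 and 1.11 on its brighter probe, a mean of 2.46-fold. Its second probe had 0.78 and 1.37, so it missed 2-fold on array 1, and the mean of both probes was 1.19. In control RNA no probe of Inpp5d or Fcgr2b was well above background on array 1. By its brighter probe Fcgr2b was at least 2.05-fold higher there. The dim signal of Inpp5d was above the floor of 199 used for such bounds, and no bound is given for it.

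The kinase Lyn, which starts the signal, was at 1.38 and 0.87. Plcg2, a phospholipase C, had a mean of 0.86, Pik3cd, a phosphoinositide kinase, one of 0.74, and the phosphatase Ptpn6 one of 0.46. Pik3cd and Ptpn6, like Inpp5d and Fcgr2b, were dim in control RNA and entered only through the transgenic channel. Inpp5d, Fcgr2b, Lyn, Plcg2 and Pik3cd are used by other leukocytes too. None (0) of the members passed centred on the spike-ins, where the median of the list was 0.29, or by normexp and loess, where it was 0.44.

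Of 23 other genes linked to mast cells, 5 were measured. Ltc4s, which makes leukotriene C4, rose, with log2 ratios of 1.82 and 1.65. On array 1 its control signal was dim, and the bound there was at least 1.57-fold. By normexp and loess its mean was 0.99 and it did not pass. Il1rl1, the receptor of interleukin-33, was at 1.69 on array 1 and 0.53 on array 2 and did not pass. Cd63, a protein of granule membranes in many cells, lay at 0.14.

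Kit, the receptor of stem cell factor on which mast cells depend, ran the other way, with log2 ratios of -0.78 and -1.09. Mitf, a transcription factor of mast cells and pigment cells, was at -0.45 and -0.62. Neither passed the size rule. Centred on the spike-ins, Kit lay at -1.39 and passed as lower, as it did on array 2 alone, while Mitf lay at -0.99 and did not. Kit and Mitf are also genes of melanocytes, and a melanocyte list, chosen after the value of Kit was seen, had 7 of 8 members measured, with 5 lower by the size rule (1 by normexp and loess) and a median of -1.34. Its summed processed signal on array 1 was 12569 in transgenic and 28118 in control RNA, of which Dct alone made up 8403 in transgenic and 17369 in control RNA. Trpm1 was at -1.85, Mlana at -1.78, Tyrp1 at -1.60, Pmel at -1.23 and Dct at -1.095. Sox10 was at 0.26, and Tyr was dim in both channels. The part of pigment cells in the values of Kit and Mitf was not tested.

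The other 17 genes of the list with a probe were dim in both channels, among them the proteases Mcpt1, Mcpt2 and Mcpt9 and the receptor Mrgprb2, and their median was 0.12.

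Factors that feed or attract mast cells had 4 of 12 members measured, with a median of 0.27 that became -0.19 when centred on the spike-ins. Ccl2, a chemokine for monocytes that can also draw mast cells, rose, with log2 ratios of 2.04 and 1.67. On array 1 its control signal was dim, and the bound there was at least 1.78-fold. By normexp and loess its mean was 0.98 and it did not pass. Kitl, which encodes stem cell factor, was at -0.20 and -0.85, so the ligand and its receptor Kit were both below 0 on each array. Il33 lay at 0.69 and 0.12 and Cxcl12 at 0.09 and 0.19, none past the size rule. The remaining 8, including Il3, Il4, Il9 and Tslp, were dim in both channels.

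Fcer1g, Srgn and Hdc can come from other cells, and markers of macrophages and of leukocytes in general moved as well. Of the 11 macrophage genes reported, 9 were measured and 9 were above 0 on both arrays, with a median of 1.04. By the size rule 4 were higher, Adgre1 at 1.31, Lyz2 at 1.23, C1qa at 1.32 and Folr2 at 1.34, and 5 did not pass, Csf1r at 0.80 and Mrc1 at 0.90 among them. Over all genes measured, 3.73% were higher by that rule and 35.3% were above 0 on both arrays. With both channels required to be well above background, 6 macrophage genes were left, 2 passed and the median was 0.97. Centred on the spike-ins none (0) of the 9 passed and their median was 0.58, and by normexp and loess 1 passed and the median was 0.80. The control signals of C1qa and Folr2 were dim on array 1, where C1qa was at least 1.75-fold higher. The summed processed signal of the measured macrophage genes on array 1 was 29424 in transgenic and 12728 in control RNA. Lyz2 alone made up 22467 of it in transgenic and 9424 in control RNA, so the sum mostly shows that gene, on 1 array and in 1 dye orientation. The macrophage median, 1.04, stood beside means of 0.97 for Srgn and 0.78 for Fcer1g.

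Markers shared by leukocytes had 5 of 9 members measured, with a median of 1.54. That median is the value of Ptprc, which read 2.91 on array 1 and 0.17 on array 2. From array 2 alone the median was 0.85, and by normexp and loess it was 0.53 and none (0) of the 5 passed. Ptprc, Tyrobp and Fcgr3 were dim in control RNA and entered only through the transgenic channel. Coro1a and Cd52 were well above background in both channels, with a median of 1.82. With dim genes kept as well, all 9 had a median of 0.85. Coro1a rose, with a mean of 1.66, as did Cd52, with 1.99, while Tyrobp, an adaptor that works much as the gamma chain does, was at 0.93 and Fcgr3, an IgG receptor that needs the gamma chain, at 0.66. The summed signal of the 5 measured genes on array 1 was 4429 in transgenic and 1356 in control RNA. The control sum includes the dim signals of Ptprc, Tyrobp and Fcgr3. Of 7 dendritic cell genes, 3 were measured, the antigen presentation genes H2-Ab1, H2-Eb1 and Cd74, each past the size rule with a median of 1.42. Their summed signal was 9389 in transgenic and 3815 in control RNA. Centred on the spike-ins none (0) of the 3 passed, with a median of 0.96, and by normexp and loess 1 passed. The part of these cells in the values of Fcer1g and Srgn was not tested.

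Basophils share the IgE receptor and Hdc with mast cells. Of their 4 listed markers, 1 was measured, Il3ra, at 0.20, and Mcpt8, Cd200r3 and Prss34 were dim in both channels. Of 9 T and NK cell genes, 1 was measured, Cd3e, at 0.37, which became -0.088 when centred on the spike-ins. None (0) of the 8 neutrophil genes with a probe was measured, Csf3r and Camp among them, and these had a median of 0.08. Basophil and neutrophil markers were therefore not well above background in either pool on array 1, with the exception of Il3ra, which other cells express too.

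**Figure D4:**
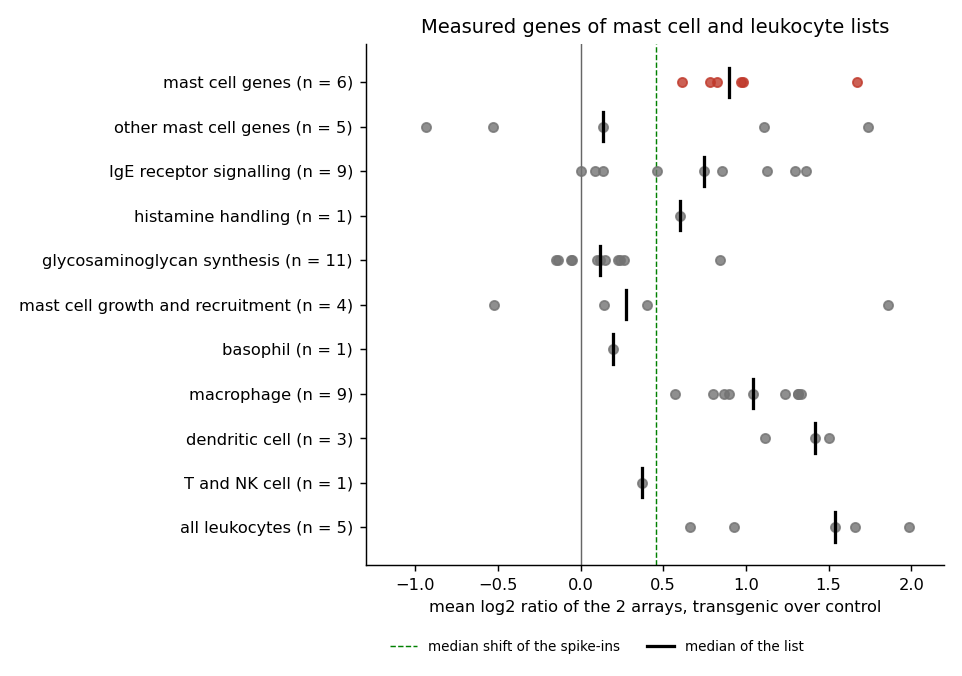
Mean log2 ratio of transgenic over control for the measured genes of each list (points; mast cell genes in red), with the median of each list as a black bar and the median shift of the spike-ins as a dashed green line. The 6 mast cell genes lie between 0.62 and 1.67, macrophage genes between 0.57 and 1.34, and Kit and Mitf make the low end of the other mast cell genes.

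Mast cell genes are known targets of GATA factors and of Mitf, so the 300 bases around each start (250 before, 50 after) were searched in RefSeq promoters of GRCm38.p6, which matched 8 of the 10 members. The letters AGATAA, or TTATCT on the other strand, bound by GATA factors, were found in 3 of the 8 genes, Cpa3, Fcer1a and Ms4a2, and in 11.2% of all 32851 promoters. The E-box CACGTG, which Mitf can bind, was in none (0) of them and in 7.2% of all promoters, and its variant CATGTG, or CACATG on the other strand, was in 1, Fcer1a, and in 14.2% of all. The motifs did not overlap each other. Other forms of the GATA letters were not searched, so a promoter without AGATAA may still hold one. The promoters of Cpa3 and Ms4a2 are shown since they hold the AGATAA matches nearest to the start, in a gene that was measured and in one that was not, with the matches in capitals.
Cpa3, chr3:20242132-20242431, minus strand: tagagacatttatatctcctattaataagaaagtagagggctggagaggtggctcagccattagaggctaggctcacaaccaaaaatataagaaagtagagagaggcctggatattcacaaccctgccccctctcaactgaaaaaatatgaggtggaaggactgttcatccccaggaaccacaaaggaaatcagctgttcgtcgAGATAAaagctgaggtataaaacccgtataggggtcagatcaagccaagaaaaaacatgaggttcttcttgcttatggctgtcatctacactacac
Ms4a2, chr19:11623670-11623969, minus strand: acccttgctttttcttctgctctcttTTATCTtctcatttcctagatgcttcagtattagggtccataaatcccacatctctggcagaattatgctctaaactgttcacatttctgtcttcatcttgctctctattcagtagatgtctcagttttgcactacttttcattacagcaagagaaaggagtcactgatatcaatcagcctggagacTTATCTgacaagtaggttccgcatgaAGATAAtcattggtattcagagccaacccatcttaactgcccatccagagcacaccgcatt
In Cpa3 the match began 46 bases before the start, and in Ms4a2 the matches began 224, 37 and 11 bases before it. A match is a run of letters and not a shown binding site. Cpa3 had a mean ratio of 1.98-fold, and Ms4a2 was dim in both pools.

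**Figure D5:**
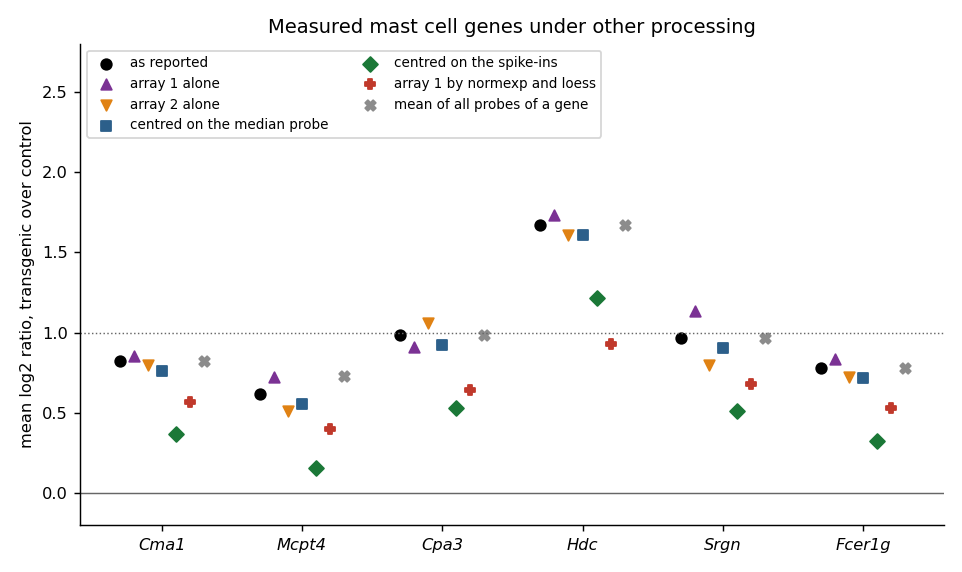
Mean log2 ratio of transgenic over control for the 6 measured mast cell genes as reported and under other processing. Each point is above 0, centring on the spike-ins gives the lowest values for 5 of the genes, and Hdc falls to 0.93 when array 1 is corrected by normexp and loess.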

How the data were processed

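Skin RNA, 500 ng per labelling, was hybridised to 2 Agilent mouse arrays with the dyes exchanged, per the labels' protocols. Per the file headers, the scanner program (Agilent Feature Extraction, version 9.5.1.1) made the intensity values of array 1: it subtracted background, normalised the dyes (linear and LOWESS) and put substitute values on dim spots, which compresses ratios. Its deposited p-value describes 1 spot and was not used. The deposited value table has 1 log10 ratio column per array. That of array 1 matched log10 of Cy5 over Cy3 at all 43790 features, within 1e-06. For array 2 the direction came from the labels' dyes, and the data bear on it: the columns as deposited correlated at -0.579 over 41534 features, and the 10 spike-in probes, which follow the dye, at 1.00 with a slope of 1.00. The column medians were 0.0141 and -0.0234, so neither was centred. The sources used here give no further steps.

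Columns were converted to log2 of transgenic over control and averaged. Controls and 29 spots marked as outliers were left out, spots of a probe were averaged, and no other spot (0) was saturated on array 1. Array 2 has no scanner output here, so detection rests on array 1, where 32.4% of probes were well above background. The brightest such probe stood for a gene. Repeated probes had a median SD of 0.09 (array 1) and 0.10 (array 2). With 2 arrays, their number limits the precision, and no test of slide or scan as a batch was possible. Accessions (24370 probes), symbols (6300) or synonyms (2425) in RefSeq (GRCm38.p6) gave the gene names, and the name on the array was kept for 8072. Coordinates of probes are those of the design, on mm8 per the file headers. limma 3.58.1 gave the normexp and loess alternative (offset 50).

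Named are all 10 members and, from each other list, genes past the rule and up to 4 others with the largest absolute means; of unmeasured genes, those in the text were picked as examples. One listed macrophage gene is left out of its list's counts and is not reported here. The members and lists were chosen with earlier results of these data known. No gene was named for likeness of pattern, since 2 arrays of 1 comparison give no pattern over conditions.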

Additional observations from a re-analysis of the deposited data

How the results depend on the processing

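No paired analysis was possible because the arrays are treated as 1 comparison of 1 pool per genotype. The 6 measured mast cell genes kept ratios above 0 under every alternative run in which they were measured, and 0 were 2-fold lower in any. Their median, 0.90, was 0.83 centred on the median probe, 0.44 on the spike-ins, 0.70 without the filter on dim probes (10 genes), 0.82 with both channels well above background (5 genes, Hdc left out), 0.60 with array 1 by normexp and loess, and 0.80 to 0.88 from 1 array alone. The count at least 2-fold higher, 1, was 0 with both channels required, 0 by normexp and loess, 2 from either array alone (Hdc with Srgn on array 1 and with Cpa3 on array 2) and 5 at 1.5-fold. Over all genes, 390 higher and 176 lower became 175 and 457 centred on the spike-ins (27.7% higher, against 68.9%), 243 and 86 with both channels required, 107 and 56 by normexp and loess, 864 and 397 at 1.5-fold, and 520 to 570 and 259 to 274 from 1 array alone. Keeping flagged spots left the members' values as they were. Signal over background limits the tryptases, Fcer1a and Ms4a2. The cause of these shifts was not tested, except that fewer genes enter under the stricter filter.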

Other observations

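Ptprc, the common leukocyte antigen, was read differently by its 2 probes, both dim in the control channel of array 1. The brighter had log2 ratios of 2.91 on array 1 and 0.17 on array 2, and the other 1.22 and 1.63, with means of 1.54 and 1.42. Some genes tied to mast cells had means above 0.5 on probes dim in both channels: Gata2, a transcription factor of mast cells, was at 0.75, Hnmt, which inactivates histamine, at 0.62, Lat2, an adaptor of the IgE receptor, at 0.74, and Syk, its kinase, at 0.59. The arrays disagreed on the sign of Syk, at -0.22 on array 1 and 1.39 on array 2. Hnmt was at 1.13 on array 1 and 0.11 on array 2. The genes in this group were chosen after their values were seen.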
